A study of Saccharomyces cerevisiae with 43 samples.

Results

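The genes described here are the 41 nuclear genes of budding yeast that encode the respiratory chain: 3 NADH dehydrogenases, 4 subunits of succinate dehydrogenase, 9 of the bc1 complex, both forms of cytochrome c, 9 subunits of cytochrome oxidase and 14 of ATP synthase. They were chosen by complex, as every row of these genes that stands on both array designs of the study, and not by any measured value. They make up 41 of 5604 genes and features on the first design and 41 of 6868 on the second. The study measured transcript ratios on 43 spotted 2-colour arrays, 32 in 14 groups on the first design and 11 with 1 array per condition on the second. It asked how a first stress alters the transcript response of yeast to a later and different one. Cells of the haploid mating type a strain BY4741 grew in the rich glucose medium YPD, and the second design adds a strain that lacks NUP42, which encodes a nuclear pore protein (nup42Δ). BY4741 derives from the laboratory strain S288C and shares its HAP1 allele, which a transposon insertion interrupts, so that the factor that activates several cytochrome genes with haem is impaired in every group.

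On the first design cells grew for 3 doublings. Naive cells, which had no earlier stress, received 0.4 mM H2O2 and were compared with their 0 min sample after 10, 20, 30 and 40 min (3, 3, 2 and 2 arrays). Pretreated cells received 0.7 M NaCl for 60 min, recovered in fresh YPD for 4 h, and were then given 0.4 mM H2O2 and compared with the recovered 0 min sample at the same times (3, 3, 2 and 2 arrays). A course of 0.7 M NaCl itself had 1, 2, 2 and 1 arrays at 15, 30, 45 and 60 min. Cells that had recovered for 240 min, from NaCl on 3 arrays and from mock treatment on another 3, were compared with untreated ones.

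In respiration, electrons from NADH and succinate pass to ubiquinone, from there through the bc1 complex to cytochrome c, and through cytochrome oxidase to oxygen, and the proton gradient that these steps build drives ATP synthase. Budding yeast has no proton-pumping complex I; single-protein NADH dehydrogenases take its place, one facing the matrix (Ndi1) and a pair facing the intermembrane space (Nde1 and Nde2). On glucose most of these genes are repressed, and 2 of the proteins come in an aerobic and a hypoxic form: CYC1 and COX5A are known as the aerobic genes, CYC7 and COX5B as their hypoxic counterparts.

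Each value below is a log2 ratio of the labelled sample over its reference on the same array, or the mean of such ratios with a standard error (SE) based on the pooled variance of the 32 arrays of the first design. A gene is called at an adjusted p under 0.05 in limma's test across all genes, and "rose" or "fell" is written only of called genes. A ratio holds no transcript level, so no gene is set above another in abundance, and a ratio from a whole culture cannot tell a change in each cell from a change in some of them. Neither can it tell apart the signals of similar paralogs or of overlapping strands, for which the array's probes are not described in the sources used here. Per array the first design held 4446 to 5575 values with SDs from 0.226 to 1.46, and the smallest spreads were on the recovery arrays. All 41 genes had values on every array of the second design; on the first, 27 had a value on all 32 arrays and the fewest was 20 for NDE2. Replicate 3 of the 10 and 20 min H2O2 groups (4 arrays) carries another array code than the rest, and values within each code series are given where they bear on a result. NUP42 itself read −5.36 and −4.75 on the 2 arrays that set nup42Δ against BY4741. Of the 4 genes typical of mating type a on the arrays, 3 fell at 40 min of H2O2 and 4 at 30 min of NaCl; their levels cannot be checked from ratios.

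Under H2O2 more of the respiratory chain genes rose than fell at each time. In naive cells 19 of 40 tested rose at 10 min, 24 of 41 at 20 min, 32 of 40 at 30 min and 27 of 39 at 40 min. Over all genes tested at these times, 15.2%, 25.4%, 25.7% and 27.9% rose. One gene fell at 10 min (SDH2) and 1 at 20 min (NDE1), and 0 at 30 and 40 min, when 18.5%, 29.2%, 29.3% and 33.4% of all genes fell. The median log2 ratio of the tested genes was 0.35, 0.49, 0.75 and 0.65 in time order, where the medians of all genes lay between −0.08 and −0.04. The 4 times share their reference. NDE2 was not tested at 10 and 40 min, NDI1 at 30 min and COR1 at 40 min, because too few arrays held a value. One array decided part of 2 of these counts: the genes called numbered 13 without replicate 2 of the 10 min group and 17 without replicate 2 of the 40 min group. With the spread of all arrays equalised, 16 genes were called at 20 min, 14 at 30 min and 8 at 40 min.

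In pretreated cells 20 of 40 rose at 10 min, 30 of 40 at 20 min, 25 of 38 at 30 min and 18 of 40 at 40 min, against 16.6%, 26.7%, 29.7% and 29.7% of all genes. NDE1 fell at 10 min and COX5A at 40 min, and 0 genes fell at 20 and 30 min. The call of NDE1 (−0.47) was lost without replicate 1, which left −0.27. Over all genes 23.7%, 33.9%, 32.6% and 33.4% fell, in time order. The medians were 0.40, 0.56, 0.65 and 0.43. NDE2 was not tested at 10 and 30 min, CYT1 at 20 min, TIM11 and COX9 at 30 min and NDI1 at 40 min. Without replicate 3 of the 10 min group 12 genes were called there, and without replicate 2 of the 40 min group 11; with the spread of all arrays equalised, 14 were called at 20 min, 7 at 30 min and 2 at 40 min.

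Under NaCl calls were made in both directions. At 30 min 19 of 38 tested rose and 6 fell (CYC1, NDE1, COX9, ATP18, ATP19 and ATP20), against 24.6% and 27.6% of all genes, with a median of 0.42. At 45 min 25 of 40 rose and 1, CYC1, fell, against 18.6% and 19.2% of all genes, with a median of 0.58. ATP1 and COX4 were not tested at 30 min, nor was NDE2 at either time. Without replicate 2 of the 45 min group 17 genes were called at that time. The single arrays at 15 and 60 min were not tested.

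**Figure D1:**
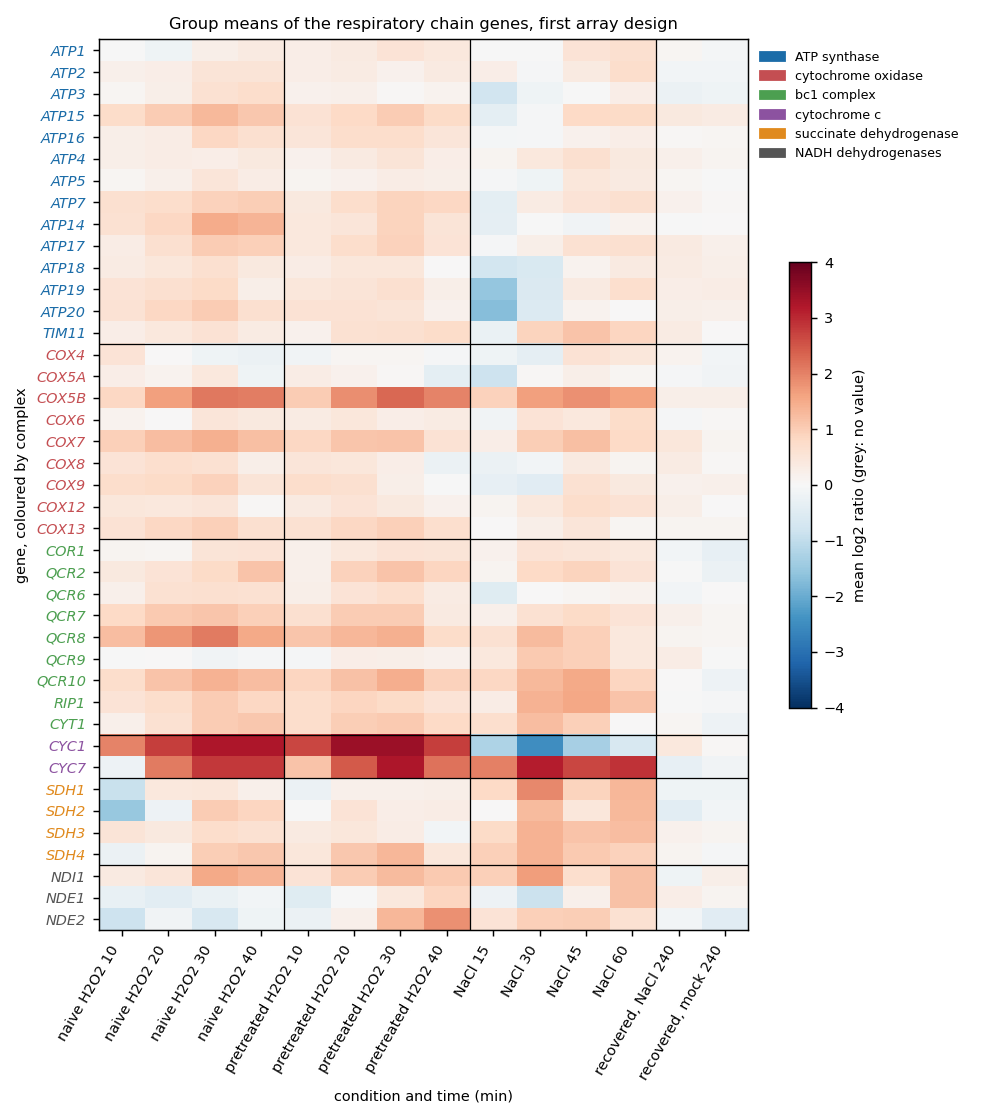
Mean log2 ratio of each of the 41 genes (rows, ordered by complex) in each of the 14 groups of the first design (columns), with the colour scale beside the map. Most rows are higher under H2O2 in naive and pretreated cells, CYC1 is the row that is high under H2O2 and low under NaCl, and the recovery columns lie close to 0.

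The complexes did not share one course. At 30 min of NaCl the median over the ATP synthase subunits was −0.06 on both arrays, while on the naive H2O2 arrays of the same time it was 0.66 and 0.81, so that the groups did not overlap. The succinate dehydrogenase subunits had medians of 1.47 and 1.32 under NaCl and 0.78 and 0.95 under H2O2, again with no overlap and in the opposite order. The bc1 subunits had medians of 0.88 and 1.13 under NaCl and 0.73 and 1.24 under H2O2, which overlap. The cytochrome oxidase subunits had medians of 0.16 and 0.38 under NaCl and 0.56 and 0.65 under H2O2. These medians are descriptions of each array and carry no test.

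**Figure D2:**
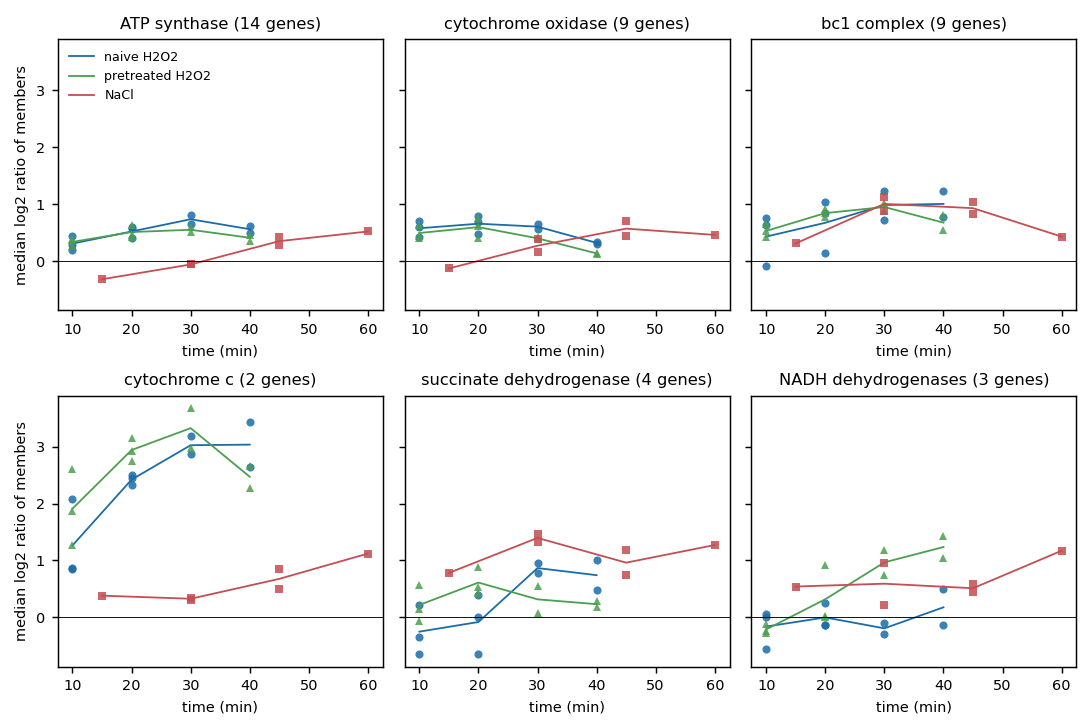
Median log2 ratio over the subunits of each complex on each array of the first design, by group; each point is 1 array. Succinate dehydrogenase has its lowest values at 10 and 20 min of H2O2 in naive cells (−0.65 to 0.39) and high under NaCl (0.74 to 1.47), and ATP synthase is below 0 at 15 and 30 min of NaCl and between 0.20 and 0.81 at every H2O2 time.

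The 3 NADH dehydrogenases moved separately. NDI1, the enzyme that feeds electrons from matrix NADH into the chain, read 0.10 and 0.62 at 10 min of H2O2 in naive cells, 0.40, −0.10 and 1.18 at 20 min, 1.53 on the array with a value at 30 min, and 1.04 and 1.66 at 40 min. The arrays at 40 min lie above both arrays at 10 min, while those at 20 min are widely spread. NDI1 rose by 1.35 ± 0.25 at 40 min (adjusted p = 0.00019, n = 2). Pretreated cells gave 0.63 and 0.49, then 0.87 and 1.12, 1.19 and 1.32, and 1.04 on the single array at 40 min, and it rose at 20 and 30 min, the call at 20 min being lost without replicate 2 (0.87). Under NaCl it read 0.95 at 15 min, 1.83 and 1.51 at 30 min, 0.27 and 1.08 at 45 min and 1.17 at 60 min. All 6 NaCl arrays lie above 0, and the rise at 30 min was 1.67 ± 0.25 (adjusted p = 2.6e-05, n = 2). The call at 45 min (0.68) was lost without replicate 2, which left 0.27.

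NDE1, the external NADH dehydrogenase known for use on glucose, went below its reference on all 10 naive H2O2 arrays. It read −0.28, −0.08 and −0.51 at 10 min, −0.37, −0.26 and −0.67 at 20 min, −0.26 and −0.29 at 30 min, and −0.06 and −0.14 at 40 min. It fell at 20 min only (−0.43 ± 0.16, adjusted p = 0.025, n = 3), a call lost without replicate 1 or 3. After pretreatment NDE1 read −0.87, −0.25 and −0.28 at 10 min, 0.03, −0.12 and 0.00 at 20 min, 0.66 and 0.16 at 30 min, and 1.08 and 0.64 at 40 min. The pretreated arrays at 40 min lie above every naive array, and the rise against 0 min was 0.86 ± 0.19 (adjusted p = 0.00057, n = 2), lost without replicate 1 (0.64). NDE1 read −0.20 at 15 min of NaCl, −0.67 and −1.07 at 30 min, 0.58 and −0.20 at 45 min and 1.17 at 60 min, so that the lowest arrays are those at 30 min and the highest is that at 60 min. The fall at 30 min was −0.87 ± 0.19 (adjusted p = 0.00067), lost without replicate 2 (−0.67).

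NDE2, the second external enzyme, had the fewest values. In naive cells it read −0.82 at 10 min, −0.13 and −0.13 at 20 min, 0.06 and −1.32 at 30 min and −0.16 at 40 min. NDE2 in pretreated cells read −0.24 at 10 min, −0.50 and 0.92 at 20 min, 1.32 at 30 min, and 1.78 and 1.86 at 40 min. The 2 pretreated arrays at 40 min are its highest on this design, and it rose there by 1.82 ± 0.38 (adjusted p = 0.0018, n = 2). Under NaCl it read 0.54, 0.96, 0.99 and 0.61 on the 4 arrays with a value, 1 per time, so it was not tested. The difference NDE2 minus NDE1 within arrays passed the test in none of the comparisons where it could be tested with all 32 arrays in 1 fit; at 40 min in pretreated cells it was 0.96, and it passed there when that group was fitted without the others.

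At 10 min of H2O2 in naive cells succinate dehydrogenase had the lowest median of the complexes (−0.56). SDH2, its iron-sulfur subunit, read −1.17 and −1.85 at 10 min in naive cells, −0.65, −0.45 and 0.53 at 20 min, 0.76 and 1.23 at 30 min, and 0.46 and 1.24 at 40 min. It lay below 0 on both early arrays and above 0 on all 4 late ones. It fell by 1.51 ± 0.29 at 10 min (adjusted p = 0.00045, n = 2) and was 2.36 ± 0.40 higher at 40 than at 10 min (adjusted p = 0.00015). At 40 min its rise against 0 min (0.85, adjusted p = 0.014) was lost without replicate 2 (0.46). In pretreated cells SDH2 read −0.34, −0.30 and 0.56 at 10 min and 0.34, 0.45 and 0.88 at 20 min. The low values at 10 min in naive cells were not seen on the second design. Its single array of naive BY4741 cells at that time gave SDH2 at 0.26 and a median of 0.22 for the complex.

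SDH1, the flavoprotein that oxidises succinate, read −0.90 and −0.87 at 10 min in naive cells, −0.82, −0.31 and 2.42 at 20 min, 0.05 and 0.82 at 30 min and −0.40 and 0.81 at 40 min. Replicate 3 at 20 min lies far above the other naive arrays and carries the other array code. Pretreated cells gave −0.47 and 0.01 at 10 min, −0.17 and 0.58 at 20 min, 0.48 and −0.08 at 30 min and 0.37 and 0.10 at 40 min. SDH1 was called at no H2O2 time in either kind of cell. SDH3 and SDH4, the membrane anchors, both rose at 30 and 40 min in naive cells, by 0.69 and 0.60 for SDH3 and by 0.96 and 1.09 for SDH4. The SDH3 calls of these times were lost without replicate 1 at 30 min and without replicate 2 at 40 min. Unlike the other subunits, SDH3 also rose at 10 min (0.5, from −0.07, 0.57 and 0.99) and at 20 min (0.41, 0.48 and 0.25 on its arrays).

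Under NaCl all 4 succinate dehydrogenase genes rose at 30 min, against 24.6% of all genes. SDH1 read 0.79 at 15 min, 2.08 and 1.75 at 30 min, 1.10 and 0.69 at 45 min and 1.32 at 60 min. SDH2 read 0.01, then 1.45 and 1.08, 0.53 and 0.35, and 1.31 at the same times. SDH3 read 0.78, then 1.49 and 1.29, 1.44 and 0.82, and 1.22. In each of the 3 genes the arrays at 30 min lie above the array at 15 min. The rise at 30 min was 1.92 ± 0.52 for SDH1 (adjusted p = 0.0048), 1.39 ± 0.17 for SDH3 (adjusted p = 7.3e-07), 1.39 ± 0.20 for SDH4 and 1.26 ± 0.29 for SDH2, with 2 arrays each. The call of SDH1 was lost without replicate 1, which left 1.75.

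Of the bc1 complex, 7 of 9 subunits rose at 30 min in naive cells and 7 of 8 tested at 40 min, against 25.7% and 27.9% of all genes. The calls of QCR2, QCR6 and CYT1 at 30 min were lost without replicate 2. QCR8, a small subunit that lies against cytochrome b, led the bc1 subunits. It read 1.09, 1.32 and 1.31 at 10 min, 1.82, 1.79 and 1.63 at 20 min, 2.02 and 2.17 at 30 min, and 1.38 and 1.67 at 40 min. All 10 arrays lie above 1, with the highest at 30 min (2.10 ± 0.16, adjusted p = 9.7e-10, n = 2). The core protein QCR2 rose by 1.14 ± 0.24 at 40 min, the small subunit QCR10 by 1.24 ± 0.31, CYT1 (cytochrome c1) by 1.08 ± 0.29 and RIP1 (the Rieske iron-sulfur protein) by 0.81 ± 0.19; the calls of QCR2, CYT1 and RIP1 were lost without replicate 2. COR1, the other core protein, was called in none of the stress groups where it was tested, with estimates between 0.08 and 0.56.

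QCR9, a small subunit close to the Rieske protein, stood apart within the complex. It read −0.48, 0.07 and 0.39 at 10 min in naive cells, −0.39, 0.11 and 0.31 at 20 min, −0.28 and −0.01 at 30 min, and −0.14 and 0.03 at 40 min. It was called at no H2O2 time in naive or pretreated cells. Under NaCl it read 0.42 at 15 min, 0.88 and 1.25 at 30 min, 0.82 and 1.05 at 45 min and 0.41 at 60 min. All 6 NaCl arrays lie above the 10 naive H2O2 arrays, the nearest by 0.41 against 0.39. Pretreated replicate 3 at 20 min of H2O2 (0.55) and replicate 1 at 30 min (0.43) exceed the NaCl arrays at 15 and 60 min. The rise at 30 min was 1.06 ± 0.23 (adjusted p = 0.00046, n = 2), and the NaCl value exceeded the H2O2 value of that time by 1.21 ± 0.32 (adjusted p = 0.0046), a call lost without NaCl replicate 2 (1.02). RIP1 (1.39 ± 0.19, adjusted p = 2.6e-06), QCR10 (1.29), QCR8 (1.27) and CYT1 (1.23) rose at 30 min of NaCl too, while QCR6 had an estimate of 0.00 ± 0.23.

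The 2 cytochrome c genes, which encode the mobile carrier between the bc1 complex and cytochrome oxidase, went opposite ways under NaCl and both rose under H2O2 from 20 min on in naive cells. CYC1 read 1.69, 2.14 and 2.08 at 10 min in naive cells, 2.50, 2.82 and 2.94 at 20 min, 3.18 and 3.28 at 30 min, and 3.34 and 3.13 at 40 min. Each later group lies above the 10 min group on every array. The rise was 1.97 ± 0.19 at 10 min (3.92-fold, adjusted p = 5.1e-08, n = 3) and 3.23 ± 0.23 at 40 min (9.42-fold, adjusted p = 1.1e-10, n = 2). In pretreated cells CYC1 read 2.96, 2.09 and 2.98 at 10 min, 3.50, 3.19 and 3.60 at 20 min, 3.53 and 3.32 at 30 min and 2.60 and 2.93 at 40 min. The highest pretreated mean was at 20 min, 3.43 ± 0.19 (10.8-fold, adjusted p = 1.7e-12, n = 3).

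Under NaCl the direction of CYC1 turned. It read −1.25 at 15 min, −2.81 and −2.18 at 30 min, −1.41 and −1.24 at 45 min and −0.65 at 60 min. All 6 arrays lie below 0, with the lowest at 30 min. The fall was −2.50 ± 0.23 at 30 min (5.64-fold lower, adjusted p = 8.3e-09, n = 2) and −1.32 ± 0.23 at 45 min (adjusted p = 8.9e-05, n = 2). Between the stresses at 30 min CYC1 differed by −5.72 ± 0.32, NaCl minus H2O2, or 52.9-fold (adjusted p = 1.9e-11), the widest gap among the 37 genes tested.

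CYC7 read 0.03 and −0.44 at 10 min in naive cells, 2.37, 2.19 and 1.69 at 20 min, 3.18 and 2.46 at 30 min, and 3.52 and 2.16 at 40 min. Every array from 20 min on lies above both arrays at 10 min. At 10 min the estimate was −0.20 ± 0.44 (adjusted p = 0.76), and at 20 min CYC7 rose by 2.08 ± 0.36 (adjusted p = 7.8e-05, n = 3). In pretreated cells it read 0.76, 0.45 and 2.22 at 10 min, 1.98, 3.14 and 2.25 at 20 min, 3.82 and 2.63 at 30 min, and 2.73 and 1.63 at 40 min. Replicate 3 at 10 min lies far above the other 2, and the call of that time (1.14, adjusted p = 0.016) was lost without it (0.60). Under NaCl CYC7 read 2.01 at 15 min, 3.48 and 2.81 at 30 min, 3.11 and 2.24 at 45 min and 2.89 at 60 min, so that all 6 arrays are above 2. The rise at 30 min was 3.15 ± 0.44 (8.85-fold, adjusted p = 6.1e-06, n = 2), and it did not pass against the H2O2 value of that time (0.32, adjusted p = 0.70).

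The difference CYC7 minus CYC1 within each array gives the unequal change of the pair directly. It was −1.66 and −2.58 at 10 min in naive cells, between −1.25 and 0.18 on the 7 later arrays, and 3.26, 6.29, 4.99, 4.52, 3.48 and 3.54 on the NaCl arrays in time order. The NaCl arrays lie above all H2O2 arrays. The mean was −2.12 ± 0.46 at 10 min (adjusted p = 0.0017, a call lost without replicate 2, which left −1.66), −0.67 at 20 min (adjusted p = 0.14), −0.41 at 30 min and −0.40 at 40 min, and 5.64 ± 0.46 at 30 min of NaCl (adjusted p = 8e-09). In pretreated cells it was −1.53 at 10 min (adjusted p = 0.0033, lost without replicate 1, at −1.2), −0.97 at 20 min (adjusted p = 0.033), −0.20 and −0.58. The call at 20 min in pretreated cells did not hold without replicate 1 (−0.70) or 3 (−0.79), in the groups fitted alone, with the code series as a term or with equalised spread. Between the stresses at 30 min the pair differed by 6.05 ± 0.65 (adjusted p = 1.3e-06).

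Of the 9 subunits of cytochrome oxidase, 7 rose at 10 min in naive cells, 6 at 20 min, 8 at 30 min and 4 at 40 min. Over all genes 15.2%, 25.4%, 25.7% and 27.9% rose at these times. The subunit 5 pair moved apart in every stress. COX5B, the hypoxic form, read 0.54, 1.11 and 0.80 at 10 min in naive cells, 1.59, 1.81 and 1.55 at 20 min, 2.04 and 2.17 at 30 min and 2.01 and 2.10 at 40 min. The groups at 10, 20 and 30 min do not overlap. The rise was 0.82 ± 0.14 at 10 min (adjusted p = 0.00018, n = 3) and 2.06 ± 0.18 at 40 min (adjusted p = 2.7e-09, n = 2). In pretreated cells COX5B read 1.01, 0.73 and 1.30, then 1.57, 1.96 and 2.07, 2.10 and 2.52, and 1.72 and 2.26. Under NaCl it read 0.93 at 15 min, 1.59 and 1.67 at 30 min, 1.75 and 1.90 at 45 min and 1.61 at 60 min. It was above its reference on all 26 stress arrays and was called in each of the 10 stress groups tested.

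COX5A, the aerobic form, stayed near its reference in the same samples. It read 0.01, 0.29 and 0.48 at 10 min in naive cells, −0.36, 0.41 and 0.41 at 20 min, 0.31 and 0.54 at 30 min, and −0.04 and −0.30 at 40 min. In pretreated cells it read 0.24, 0.27 and 0.35, then 0.07, 0.24 and 0.23, 0.12 and 0.00, and −0.49 and −0.28. Under NaCl it read −0.83 at 15 min, −0.03 and 0.12 at 30 min, 0.23 and 0.21 at 45 min and 0.08 at 60 min. Both pretreated arrays at 40 min lie below all earlier pretreated ones. Only 2 calls were made, 0.42 at 30 min in naive cells (adjusted p = 0.024) and −0.39 ± 0.16 at 40 min in pretreated cells (adjusted p = 0.035), and each was lost without either array of its group.

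The difference COX5B minus COX5A was above 0 on all 26 stress arrays. In naive cells it was 0.56 ± 0.15 at 10 min (adjusted p = 0.0068), 1.5 ± 0.15 at 20 min (adjusted p = 3.3e-08), 1.68 ± 0.18 at 30 min and 2.23 ± 0.18 at 40 min (adjusted p = 1.4e-09). In pretreated cells it was 0.73, 1.69, 2.25 and 2.38 at these times, and under NaCl 1.58 at 30 min (adjusted p = 2.4e-07) and 1.60 at 45 min. NaCl and H2O2 at 30 min differed by −0.10 ± 0.26 in this pair (adjusted p = 0.79), which is within the error. The call at 10 min in naive cells was lost in the groups fitted alone, where the estimate was the same 0.56, and without replicate 2, which left 0.42.

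**Figure D3:**
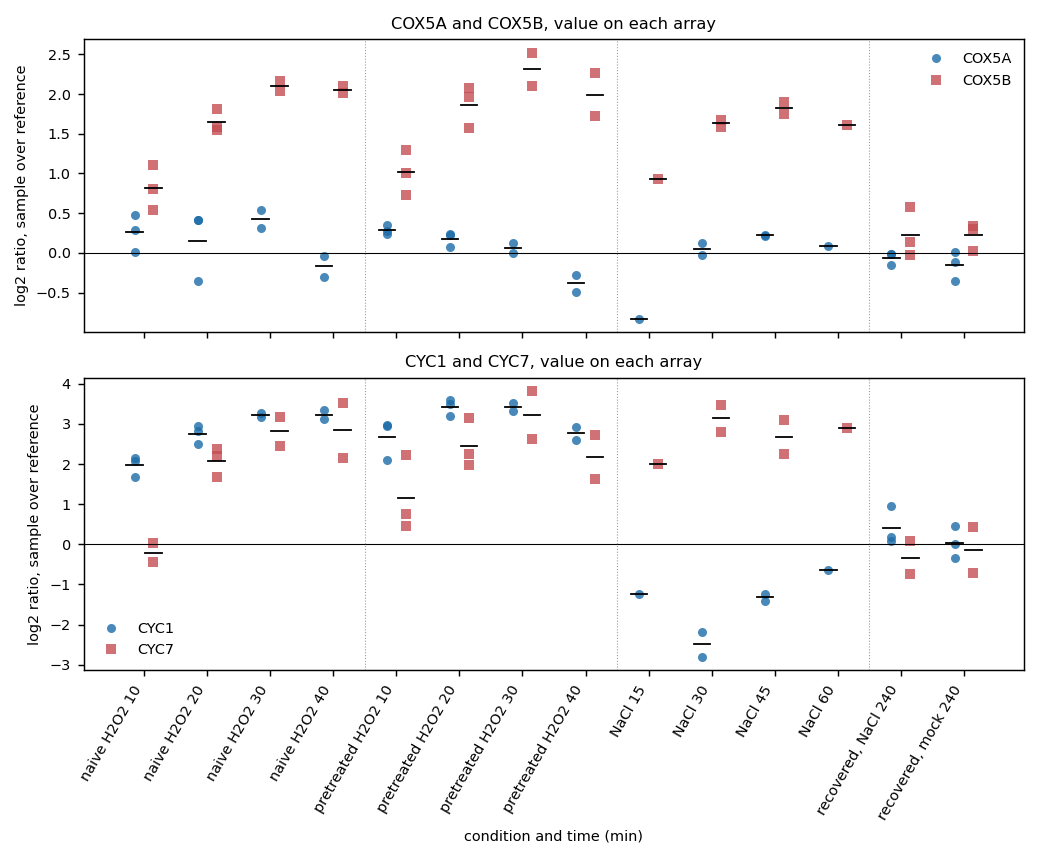
Log2 ratio of COX5A, COX5B, CYC1 and CYC7 on each array of the first design, by group; each point is 1 array. COX5B lies above COX5A on every stress array, and CYC1 and CYC7 lie on opposite sides of 0 on all 6 NaCl arrays.

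Among the other cytochrome oxidase subunits, COX7, a small membrane subunit, rose at every time tested under H2O2, by 1.41 ± 0.19 at 30 min in naive cells, and by 0.98 at 30 min of NaCl; its call at 40 min in pretreated cells was lost without replicate 2 (0.30). COX13, a peripheral subunit, also rose at each H2O2 time, by 0.94 ± 0.12 at 30 min in naive cells. COX4 read 0.40 and 0.72 at 10 min in naive cells, −0.52, 0.24 and 0.35 at 20 min, −0.38 and 0.03 at 30 min and −0.09 and −0.41 at 40 min. Its later arrays spread around 0, and its call at 10 min (0.56, adjusted p = 0.027) was lost without replicate 2 or 3. In pretreated cells COX4 read −0.17 and −0.09, then 0.04 and 0.11, 0.07 and 0.11, and −0.02 and −0.06, and under NaCl it read −0.18 at 15 min, −0.36 on the 1 array with a value at 30 min, 0.70 and 0.44 at 45 min and 0.46 at 60 min. COX9, a small subunit, read −0.32, then −0.57 and −0.31, 0.78 and 0.42, and 0.40 along the NaCl course, below 0 to 30 min and above it from 45 min. Its fall at 30 min (−0.44, adjusted p = 0.032) was lost without either array.

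Of the 14 ATP synthase subunits, 6 rose at 10 min of H2O2 in naive cells, 9 at 20 min, 12 at 30 min and 10 at 40 min, and 0 fell. Over all genes 15.2%, 25.4%, 25.7% and 27.9% rose at these times, and 18.5%, 29.2%, 29.3% and 33.4% fell. ATP14, a subunit of the peripheral stalk, read 1.39 and 1.55 at 30 min and 1.06 and 1.68 at 40 min, above all arrays of the earlier times, and rose by 1.37 ± 0.23 at 40 min (adjusted p = 2.1e-05). ATP15, the epsilon subunit of the rotor stalk, read 0.65, 1.02 and 0.49 at 10 min, 1.09, 1.25 and 0.70 at 20 min, 1.21 and 1.41 at 30 min and 0.90 and 1.24 at 40 min, always above 0. Its rise at 40 min was 1.07 ± 0.16 (adjusted p = 8.8e-06). The catalytic head genes ATP1 (alpha) and ATP2 (beta) were lower than ATP14 and ATP15. ATP1 had estimates from −0.16 to 0.37 in naive cells with no call. ATP2 rose by 0.53 at 30 min and 0.52 at 40 min, calls lost without either array of their group. The median estimate of the 14 subunits was 0.70 at 30 min and 0.57 at 40 min, so ATP2 was close to it at 40 min.

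Under NaCl 3 small membrane subunits of ATP synthase fell at 30 min, the only ones of the 13 tested in the complex. ATP4 (0.41) and TIM11 (0.88) rose, and both rises were lost without replicate 2, which left 0.14 and 0.64. Over all genes 27.6% fell at that time and 24.6% rose. ATP18 read −0.72 at 15 min, −0.73 and −0.47 at 30 min, 0.18 and 0.10 at 45 min and 0.35 at 60 min. ATP19 read −1.55, then −0.76 and −0.38, 0.28 and 0.46, and 0.67. ATP20, which helps ATP synthase form dimers, read −1.69, then −0.82 and −0.26, 0.14 and 0.14, and 0.03. All 3 lie below 0 on the arrays at 15 and 30 min and above 0 on those at 45 and 60 min. They fell at 30 min by 0.60 ± 0.14 (ATP18, adjusted p = 0.0011), 0.57 ± 0.15 (ATP19, adjusted p = 0.0023) and 0.54 ± 0.15 (ATP20, adjusted p = 0.0037), and each call was lost without replicate 1, which left −0.47, −0.38 and −0.26. TIM11, another small subunit known for dimer formation, went the other way and read −0.28, then 0.64 and 1.11, 0.96 and 1.32, and 0.86, with a rise at 45 min of 1.14 ± 0.19 (adjusted p = 6.9e-05). In the H2O2 course ATP18 read 0.32, 0.51 and 0.20 at 10 min in naive cells, 0.51, 0.63 and 0.18 at 20 min, 0.63 and 0.67 at 30 min and 0.33 and 0.45 at 40 min, above 0 on all 10 arrays. The pretreated arrays gave 0.16, 0.39 and 0.38, then 0.37, 0.61 and 0.34, 0.48 and 0.43, and −0.02 and 0.08.

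The 2 stresses were set against each other directly at 30 min, where both had 2 arrays. Of 37 genes tested, 2 were higher under NaCl (QCR9 and SDH3) and 15 lower, against 20.0% and 24.6% of all genes, with a median difference of −0.50 where that of all genes was −0.10. Of the 15 lower, 10 were ATP synthase subunits (of 13 tested), 3 were cytochrome oxidase subunits (COX8, COX9 and COX13), 1 was QCR8 and 1 was CYC1; the call of QCR8 was lost without NaCl replicate 1 (−0.61) or H2O2 replicate 2 (−0.74). The 3 of lowest p were CYC1, ATP20 (−1.55 ± 0.21, adjusted p = 5.9e-06) and ATP19 (−1.32 ± 0.21, adjusted p = 3.7e-05), and ATP18 followed (−1.25 ± 0.20, adjusted p = 4.5e-05). ATP14 differed by −1.5, ATP15 by −1.36 and COX9 by −1.35, and in each the arrays of the 2 stresses do not overlap. SDH3 differed by 0.70 ± 0.25 (adjusted p = 0.026), lost without any of 3 of the 4 arrays, and SDH1 by 1.48 ± 0.74 (adjusted p = 0.11). With the spread of all arrays equalised, 4 genes were called.

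**Figure D4:**
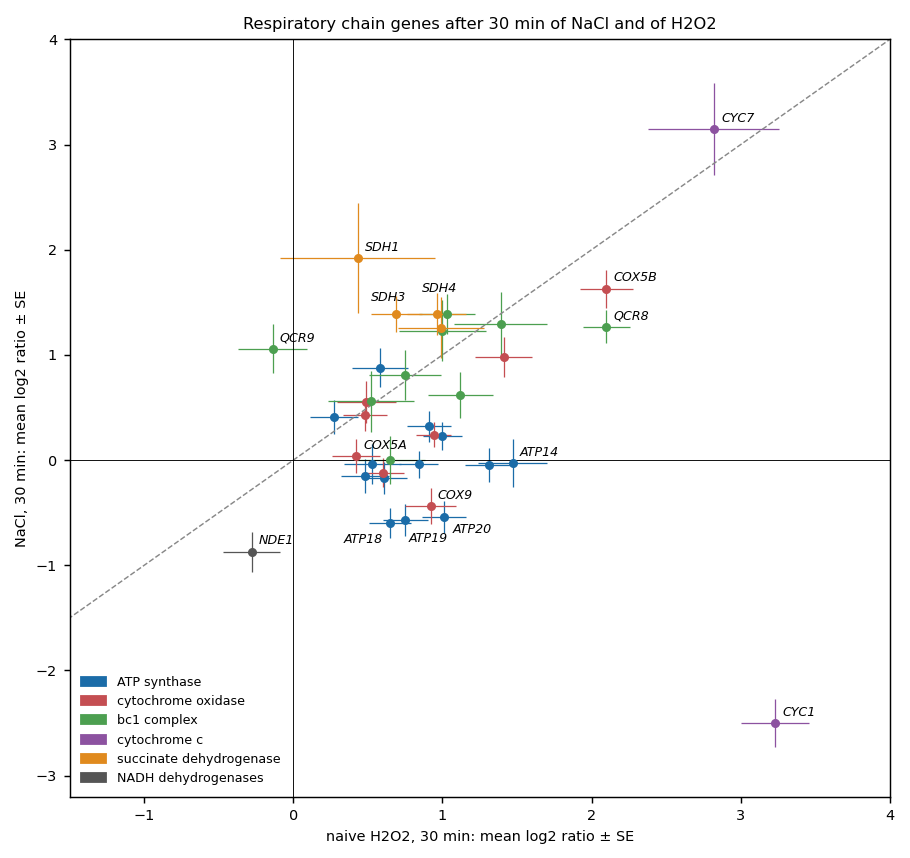
Mean log2 ratio of each gene at 30 min of NaCl (vertical axis) against 30 min of H2O2 in naive cells (horizontal axis), both on the first design, coloured by complex. Most ATP synthase genes lie below the line of equal values, the succinate dehydrogenase genes above it, and CYC1 lies far below it at 3.23 under H2O2 and −2.50 under NaCl.

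Within the H2O2 course of naive cells 10 of 39 genes were higher at 40 than at 10 min and 1, COX4, was lower, against 19.8% and 22.1% of all genes; 6 were called without replicate 2 of the 40 min group, and COX4 was not called without it or without replicate 3 of the 10 min group (−0.65 in each case). Those of lowest p were SDH2, COX5B (1.24 ± 0.23, adjusted p = 0.00022) and SDH4 (1.33 ± 0.26, adjusted p = 0.00046), followed by CYC7 (3.04 ± 0.62, adjusted p = 0.00076). The median over the 39 genes was 0.28 and turned to −0.07 when the spread of the arrays was equalised. CYC1 was 1.26 higher at 40 min (adjusted p = 0.0016) as deposited, and lower by that alternative (−0.39).

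In pretreated cells 2 of 39 genes were higher at 40 than at 10 min (COX5B and NDE1) and 3 lower (COX5A, COX8 and COX9), against 20.7% and 23.4% of all genes, and 3 were called without replicate 1 of the 40 min group. Those of lowest p were NDE1 (1.33 ± 0.25, adjusted p = 0.00019), COX5B (0.98 ± 0.23, adjusted p = 0.0014, lost without replicate 2 of the 40 min group, at 0.71) and COX8 (−0.71 ± 0.18, adjusted p = 0.0026). The median, 0.09 as deposited, was −0.18 with the spread of all arrays equalised.

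Between 30 and 45 min of NaCl 7 of 38 genes were higher at 45 min and 0 lower, against 6.51% and 1.97% of all genes. They were ATP15, ATP18, ATP19 and ATP20, COX9, CYC1 and NDE1. The lowest p were those of ATP19 (0.94 ± 0.21, adjusted p = 0.0068), COX9 (1.04 ± 0.24, adjusted p = 0.0091) and NDE1 (1.06 ± 0.28, adjusted p = 0.018). The count was 0 without replicate 1 of the 30 min group, 1 without replicate 1 of the 45 min group and 2 without replicate 2 of it, so each call rests on single arrays.

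A difference between pretreated and naive cells was called for few of these genes. Such calls were rare among all genes too at the earlier times, so the early counts do not set these genes apart. At 10 min limma called 0 of 40 genes, with 5 at an unadjusted p under 0.05, against 0.229% of all genes higher and 0.0% lower. The 3 of lowest p were SDH2 (−0.03 in pretreated and −1.51 in naive cells, adjusted p = 0.12), SDH4 (0.46 and −0.24, adjusted p = 0.28) and CYC1 (2.68 and 1.97, adjusted p = 0.36). Without replicate 2 of the pretreated group 1 gene was called, SDH2, with a difference of 1.62. Both naive values of SDH2 come from the same array code series, and within that series the difference was 1.19. Pretreated replicate 3 (0.56) carries the other code, in which SDH2 had no naive value. The median difference over the 40 genes was 0.02, and −0.03 with equalised spread.

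At 20 min SDH4 alone of 40 genes was called, higher by 0.98 ± 0.26 in pretreated cells (adjusted p = 0.041), against 3.06% of all genes higher and 0.698% lower. It read 0.98, 1.05 and 1.25 in pretreated cells and 0.32 and −0.10 in naive cells, with no overlap. The difference was 1.35 within one array code series and 0.70 within the other. Only 5 arrays of the 2 groups held a value for SDH4, and the call was lost without any one of 5 arrays (0.77 to 1.19). The estimates of 2 other genes, ATP1 and SDH2, passed only without naive replicate 3. ATP16 (0.39, adjusted p = 0.13) and CYC1 (0.68, adjusted p = 0.13) came next.

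At 30 min 0 of 37 genes were called by limma, with 4 at an unadjusted p under 0.05, against 2.77% of all genes higher and 6.16% lower. QCR8 (−0.68 ± 0.23, adjusted p = 0.07), ATP3 (−0.55, adjusted p = 0.096) and ATP20 (−0.52, adjusted p = 0.12) had the lowest p, and QCR8 was called without replicate 2 of the pretreated group (−0.94). At 40 min NDE1 was higher in pretreated cells by 0.96 ± 0.28 (0.86 against −0.10, adjusted p = 0.025) and QCR8 lower by 0.79 ± 0.23 (0.74 against 1.52, adjusted p = 0.029), 2 of 38 genes, against 2.54% of all genes higher and 9.37% lower. Both were lost without either naive array or without pretreated replicate 1. SDH3 had the next lowest p (−0.73, adjusted p = 0.056). The median difference at 40 min was −0.28, with 30 of 38 genes below 0, where the median of all genes was −0.05. With the spread of all arrays equalised the median of the 38 genes was −0.17.

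After 240 min of recovery limma called 0 of the 41 genes in cells that had received NaCl, 0 in mock-treated cells and 0 in their difference. At an unadjusted p under 0.05 there were 7, 3 and 0. Over all genes 0.0% were called higher and 0.0% lower in each of the 3 comparisons, with 473, 205 and 44 genes at an unadjusted p under 0.05. With the spread of all arrays equalised, which enlarges these narrow arrays, 12 and 7 of the 41 were called after NaCl and mock. The medians were 0.11 after NaCl and 0.03 after mock.

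The highest means after NaCl were those of COX7 (0.25, 0.98 and 0.10 on its 3 arrays, adjusted p = 0.39), CYC1 (0.19, 0.95 and 0.08, adjusted p = 0.56) and ATP15 (0.49, 0.77 and −0.06, adjusted p = 0.39). In each of them replicate 2 is the highest array. The lowest were those of SDH2 (−0.23, −0.93 and −0.13), CYC7 (−0.73 and 0.07) and ATP3 (−0.01, −0.39 and −0.26). The lowest p was that of ATP17, a small membrane subunit of ATP synthase (0.35 ± 0.10, adjusted p = 0.32), followed by COX8 (0.34) and ATP15.

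The remaining named genes lay as close to their reference. After NaCl COX5A read −0.15, −0.01 and −0.02, COX5B 0.14, 0.58 and −0.03, NDI1 −0.18, −0.28 and −0.07, NDE1 0.15, 0.49 and 0.13 and NDE2 −0.53 and 0.28. After mock treatment COX5A read −0.35, 0.01 and −0.12, COX5B 0.02, 0.30 and 0.34, CYC1 −0.34, 0.00 and 0.46, CYC7 −0.71 and 0.43, NDI1 −0.13, 0.50 and 0.36, NDE1 0.11, 0.41 and −0.20 and NDE2 −0.82 and −0.10. The arrays after NaCl and after mock treatment overlap for each of these genes. The lowest p after mock treatment were those of ATP19 (0.31), ATP15 (0.32) and ATP18 (0.24), and in the difference those of COX8 (0.28), COX7 (0.33) and NDI1 (−0.42), each at an adjusted p of 1.

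The second design, with 1 array per condition and cells grown for at least 7 generations, gives a value for each of the 41 genes and no test. A change of at least 2-fold is counted here. On the array that set untreated nup42Δ cells against BY4741, 0 of the 41 genes were higher by this measure, where 1.88% of all features were. The median of the 41 was 0.28, where that of all features on this single array was −0.0. Of the 41, 36 lay above 0, and CYC7 (0.96), SDH2 (0.75) and COX5B (0.74) were highest.

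At 30 min of NaCl the arrays of BY4741 and of nup42Δ gave a close list of genes. In BY4741 13 of the 41 were at least 2-fold higher and 2 lower (CYC1 and NDE1), against 18.3% and 18.2% of all features. The nup42Δ array has another reference, BY4741 cells sampled after NaCl and recovery, per the labels. Its values therefore hold the difference between the strains together with that of NaCl, and the parts cannot be told apart. On it 13 were higher and 3 lower (CYC1, NDE1 and ATP19), against 17.7% and 16.3%. The 13 were the same genes in both: COX5B, QCR8, QCR9, QCR10, RIP1, CYT1, CYC7, SDH1, SDH2, SDH3, SDH4, NDI1 and NDE2. CYC1 read −2.50 in BY4741 and −2.37 in nup42Δ, and CYC7 read 3.72 and 3.90. QCR9 read 1.62 and 1.5. The medians by complex were −0.06 and −0.30 for ATP synthase, 0.47 and 0.28 for cytochrome oxidase, 1.42 and 1.39 for the bc1 complex and 1.75 and 1.71 for succinate dehydrogenase, which is the order of the first design at 30 min.

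Under H2O2 the references of the second design differ. The BY4741 arrays, pretreated ones included, were set against untreated cells. The nup42Δ arrays, naive ones included, were set against nup42Δ cells that had been pretreated and sampled at 0 min, per the labels' channel 1, so the values of the strains stand side by side and are not compared. In naive BY4741 cells 1 gene was at least 2-fold higher at 10 min (CYC1, 1.06) and 5 at 20 min (CYC7, CYC1, NDI1, QCR8 and COX5B), against 2.76% and 8.54% of all features. In pretreated BY4741 cells there were 3 at 10 min (CYC1, NDI1 and CYC7) and 10 at 20 min, against 7.72% and 16.5%. The median over the 41 genes in naive BY4741 cells was 0.09 at 10 min and 0.32 at 20 min, where the first design gave 0.35 and 0.49. By complex it was −0.0 and 0.14 for ATP synthase, 0.15 and 0.36 for cytochrome oxidase and 0.12 and 0.44 for the bc1 complex. For succinate dehydrogenase it was 0.22 and 0.16. CYC1 read 1.92 in naive and 3.66 in pretreated BY4741 cells at 20 min, and CYC7 2.11 and 3.81, against the same kind of reference on single arrays.

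In naive nup42Δ cells 0 genes were at least 2-fold higher at 10 min and 3 at 20 min (CYC7, CYC1 and QCR8), against 4.03% and 11.0% of all features. In pretreated nup42Δ cells there were 1 at 10 min (CYC1) and 7 at 20 min (CYC7, CYC1, NDE2, NDI1, QCR8, COX5B and QCR10), against 6.04% and 13.2%. On the naive nup42Δ array at 10 min the median of the 41 genes was −0.16, with 8 of them above 0. At 20 min CYC1 read 1.43 in naive and 2.27 in pretreated nup42Δ cells, and CYC7 2.08 and 2.77. COX5B read 0.64 and 1.05, and COX5A −0.08 and 0.25. COX5B lay above COX5A on 10 of the 11 arrays and equalled it at −0.27 on the naive nup42Δ array at 10 min.

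NDE2, thinly measured on the first design, read 0.52 in naive and 2.18 in pretreated BY4741 cells at 20 min, 0.90 and 1.37 in nup42Δ cells, and 1.92 and 2.81 under NaCl in BY4741 and nup42Δ. NDE1 was below 0 on every stress array of this design but that of pretreated BY4741 cells at 20 min (0.01), and lowest under NaCl (−1.11 and −1.51).

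**Figure D5:**
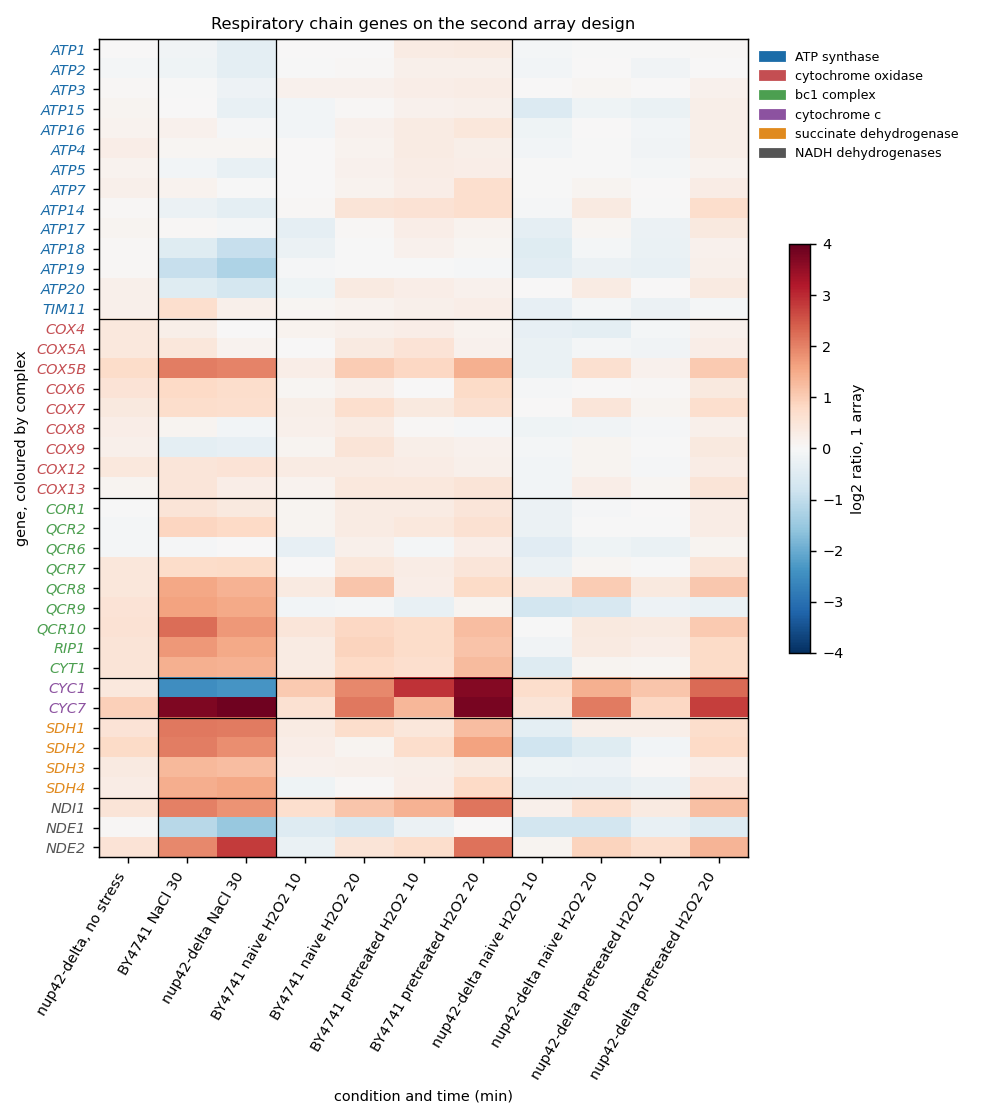
Log2 ratio of each of the 41 genes on each of the 11 arrays of the second design (1 array per condition), with the colour scale beside the map. The 2 NaCl arrays show CYC1 low (−2.50 and −2.37) and CYC7 and the succinate dehydrogenase genes high, and within each strain and pretreatment the H2O2 array at 20 min is above that at 10 min for CYC1 and CYC7.

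Genes that serve the chain without being part of it were followed in lists drawn up by function. Of 12 regulators tested at 40 min of H2O2 in naive cells, 4 rose and 3 fell, shares near those of all genes (27.9% and 33.4%). ROX1, the repressor of hypoxic genes, rose by 3.31 and HAP2, a subunit of the activator of respiratory genes, by 1.46, while HAP1 read −1.19 and MOT3, a second repressor of hypoxic genes, −1.18. At 30 min of NaCl 4 of 9 rose and 0 fell, against 24.6% and 27.6% of all genes, led by HAP1 (1.30) and HAP2 (0.90), with ROX1 at −0.17 and HAP3 at 0.06. Without NaCl replicate 2, 1 regulator was called, and 1 with the spread of all arrays equalised. Between the stresses at 30 min HAP1 (2.42), MOT3 (2.13) and MIG1 (1.70), a glucose repressor, were higher under NaCl and ROX1 (−3.60) was lower.

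Of the hypoxic genes that are not members, 5 of 7 fell and 0 rose at 40 min of H2O2, with a median of −1.32, and 6 of 7 fell at 30 min of NaCl, with a median of −1.36, where 33.4% and 27.6% of all genes fell. With the spread of all arrays equalised, 2 were called under H2O2. ANB1, a hypoxic translation factor, read −2.15 and ERG11, of ergosterol synthesis, −1.88 under H2O2, where TIR1 (−0.37) and DAN1 (−0.96), hypoxic cell wall genes, were highest. Under NaCl AAC3, a hypoxic ADP/ATP carrier that also stands in the list of carriers, read −2.54 and OLE1, the fatty acid desaturase, −2.12, and HMG2 (0.16) and TIR1 (−0.54) were highest. COX5B and CYC7, the hypoxic forms among the 41 genes, rose in these same samples.

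Of 31 assembly factors tested at 40 min of H2O2, 17 rose and 5 fell, against 27.9% and 33.4% of all genes. The 22 calls were 10 without replicate 2, 6 with the spread of all arrays equalised and 12 with that of the H2O2 and NaCl arrays equalised. SDH6, which protects the iron-sulfur subunit of succinate dehydrogenase, read 2.58 and CYT2, which attaches haem to cytochrome c1, 2.32, while COX10, of haem A synthesis, read −0.84 and ATP23, of ATP synthase assembly, −0.69. At 30 min of NaCl 9 of 27 rose and 1 fell, against 24.6% and 27.6% of all genes, with SDH6 at 2.04, COX20 at 1.08, the membrane insertase OXA1 at −1.58 and COX10 at −0.66; 4 were called without replicate 2 and 5 with the spread of all arrays equalised. Of the translation activators of mitochondrial messages 2 of 14 rose and 3 fell under H2O2 (PET494 1.24, AEP3 0.92, CBP1 −1.69, PET111 −1.17), and 4 of 11 rose and 1 fell under NaCl (PET54 1.11, NCA2 0.96, PET122 −0.85, CBS1 −0.00). The 5 calls under H2O2 were 3 without either array of that group and 1 with the spread of all arrays equalised, and the 5 under NaCl were 3 without replicate 1, 1 without replicate 2 and 2 with equalised spread.

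Of the ubiquinone synthesis genes 4 of 9 rose and 1 fell under H2O2 (COQ4 1.86, COQ3 1.52, COQ2 −1.16, COQ8 −0.34), and 5 of 7 rose and 0 fell under NaCl (COQ6 1.19, COQ4 1.16, COQ2 −0.08, COQ5 −0.23), where 27.9% and 24.6% of all genes rose. The 5 calls under NaCl were 3 without replicate 2, and with the spread of all arrays equalised 2 were called in each stress. Of the carriers and ATP synthase inhibitors 3 of 7 rose and 3 fell in each stress, and the 6 calls in each were 3 with equalised spread, as were those under NaCl without replicate 1. STF2 (4.34 and 2.92) and STF1 (2.02 and 2.03), which act with the inhibitor of the ATP synthase, were highest in each, and the ADP/ATP carriers AAC3 (−1.54 and −2.54) and PET9 (−1.06 and −0.49) lowest. Of other enzymes that feed electrons into the chain, 1 of 3 rose under H2O2 (DLD1 0.85, with DLD2 at −0.20 and GUT2 at −0.26) and 3 of 4 under NaCl, led by GUT2 (2.33), the mitochondrial glycerol-3-phosphate dehydrogenase, and CYB2 (1.46), the lactate dehydrogenase that gives electrons to cytochrome c, with DLD1 at 1.06 and DLD2 at 0.19.

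Subunits encoded in the mitochondrial genome were rarely measured: 0 of 5 were called at 40 min of H2O2, where COX2 (0.96) and COB (0.53) were highest and OLI1 (0.38) and ATP8 (−0.36) lowest, and 0 of 2 at 30 min of NaCl (OLI1 0.26, ATP8 −0.40). Of the paralogs and later-found subunits, 1 of 4 rose under H2O2 (SHH4, 2.21) and 1 fell (RCF2, −0.62), with SDH9 at 0.77 and RCF1 at 0.25. Under NaCl RCF1 (0.70) rose and RCF2 (−1.86) fell. The call of RCF2 under H2O2 and that of RCF1 under NaCl were lost without replicate 2 of their groups and with the spread of all arrays equalised, a setting in which SHH4 was not called either.

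Across the 14 group means of the first design the course of COX5B was closer to that of CYC7 (Pearson r = 0.90) than to that of its paralog COX5A (r = 0.22). For CYC7 and CYC1 r was 0.04 over all 14 groups. That value pools the NaCl groups, where the pair went opposite ways, with the H2O2 groups. Under H2O2 both genes rose in every group but the earliest of naive cells, and r within these groups was not calculated. The groups share references and the values describe these 14 points. Among 5086 genes with a mean in every group, those most like COX5B were YMR181C (r = 0.975), MRX18 (0.973), YPR1 (0.973), UGA2 (0.972) and YMR090W (0.971). Those most like CYC7 were ALD3 (0.941), RTN2 (0.936), MSC1 (0.934), GAD1 (0.934) and YNL194C (0.928).

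For CYC1, chosen for this after its values were seen, they were YKL097C (0.979), TRR1 (0.978), CUP1-2 (0.977), UTR1 (0.976) and CUP1-1 (0.973). TRR1 encodes the cytosolic thioredoxin reductase and the CUP1 copies a metallothionein. UTR1 is the neighbour of CYC1 on the chromosome and is read towards it from the opposite strand; its estimates were 1.24 at 40 min of H2O2 (adjusted p = 7.8e-05), −0.72 at 30 min of NaCl (adjusted p = 0.012) and −1.92 for NaCl minus H2O2 at 30 min (adjusted p = 8.1e-05). The annotated spans of CYC1 and UTR1 do not overlap. ANB1, the neighbour on the other side, read −2.15 and −1.16 in the same 2 groups.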

How the data were processed

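Per the labels' protocols, hot phenol was used for the RNA and amino-allyl dUTP with Oyster dyes for the cDNA. The deposited values were read as log2 ratios of channel 2 (the sample) over channel 1 (the reference), 1 per gene. The direction comes from the labels; base 2 was inferred and is not stated. For the scanner, the background correction and the normalization, the sources used here give nothing. The labels name no dye swap, so a constant dye effect enters a ratio against 0. Ratios carry no intensity, so the number of arrays limits the precision. All 41 of 41 genes were matched on both designs through a table of locus tags of assembly R64; no sequence or coordinate is printed.

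Group means were fitted over the 32 arrays of the first design with limma 3.58.1 in R 4.3.3 (lmFit, eBayes), for genes with values on at least 2 arrays of each group compared. Benjamini-Hochberg adjustment of the 2-sided p ran over all genes tested, with calls under 0.05. Tables and figures were made with pandas 2.3.3 and matplotlib 3.10.9. The fit was tested on simulated data with noise drawn independently for each array. That test therefore did not cover correlation between arrays of the same slide. Whether replicates came from separate cultures is not in the labels, and the p-values therefore measure only the spread between these samples, pooled over all groups. The second design has 1 array per condition and no test. All 41 genes are accounted for, with values per array for the paralogs, the NADH dehydrogenases, the 3 highest and 3 lowest genes of 3 groups and the 3 of lowest p in each contrast, and for QCR8, QCR9 and other subunits shown as contrasts to these, chosen with their values known; lists are described by their counts and by their 2 highest and 2 lowest genes. The members, lists and rules were chosen with earlier results of these data known. The genes most like CYC1, its neighbours and the equalising of the H2O2 and NaCl arrays alone were added after seeing the data. Alternatives were centring, equalised spread, complete genes, groups fitted alone, a slide or replicate block, a term for the code series and leaving out each array.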

Additional observations from a re-analysis of the deposited data

Results flagged for a closer look

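A difference between pretreated and naive cells passed the test for 3 of the 41 genes, each at 1 time. SDH4 was higher in pretreated cells at 20 min by 0.98 ± 0.26 (adjusted p = 0.041, limma). NDE1 was higher at 40 min by 0.96 ± 0.28 (adjusted p = 0.025), and QCR8 was lower at 40 min, at −0.79 ± 0.23 (adjusted p = 0.029). Each call was lost when single arrays were left out. Groups held at most 3 arrays, so no array was tested as an outlier within its group.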

How the results depend on the processing

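Of the members called, 1953 of 2262 alternative values kept their direction and call, 307 kept only the direction and 2 reversed; with 1 array left out 582 of 786 kept the call and 204 lost it. With the compared groups fitted alone, the members called numbered 16 (naive, 20 min), 12 (pretreated, 10 min), 0 for pretreated minus naive at 20 and at 40 min and 2 for NaCl 45 minus 30 min; COX5B minus COX5A at 10 min in naive cells (0.56), CYC7 minus CYC1 at 20 min in pretreated cells (−0.97) and its change from 10 to 40 min in naive cells (1.73) lost their calls, and NDE2 minus NDE1 at 40 min in pretreated cells (0.96) gained one. With the spread of all arrays equalised, the counts were 16, 14 and 8 in naive cells at 20, 30 and 40 min, 14, 7 and 2 in pretreated cells, 0 for pretreated minus naive at 20 and 40 min, 1 and 3 for 40 minus 10 min in naive and pretreated cells, 13 at 30 min of NaCl, 0 for NaCl 45 minus 30 min, 4 for NaCl minus H2O2, and 12 and 7 after NaCl and mock recovery. CYC7 minus CYC1 at 20 min in pretreated cells was then −0.64, COX5B minus COX5A changed by 0.66 and 0.58 from 10 to 40 min in naive and pretreated cells, and CYC1 from 10 to 40 min reversed to −0.39 and −1.29. With the H2O2 and NaCl arrays alone equalised, a choice made after seeing the data, 10 members were called at 40 min in pretreated cells, 2, 0 and 0 for pretreated minus naive at 10, 20 and 40 min and 8 for pretreated 40 minus 10 min; CYC7 minus CYC1 was −0.80 at 20 min in pretreated cells and changed by 1.78 from 10 to 40 min, QCR8 reversed to −0.69 from 10 to 40 min in naive cells and CYC1 to −0.47 in naive and −1.63 in pretreated cells. With complete genes alone the counts were 0 and 1 for pretreated minus naive at 20 and 30 min, 6 for naive 40 minus 10 min and 17 at 45 min of NaCl. CYC7 minus CYC1 was −0.94 at 20 min in pretreated cells with the code series as a term, and −1.63 for NaCl 45 minus 30 min with the slide as a random block.

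Deviations of same-numbered naive and pretreated arrays of the same time correlated between −0.03 and 0.18 for replicates 1 and 2. For replicate 3, of the other array code, they correlated at 0.38 and 0.56. The numbers are not taken to pair the samples. Arrays taken by their codes to share a slide had a consensus correlation of 0.526, and the main fit has no slide term. With the replicate number as a block, 1, 1 and 4 members were called for pretreated minus naive at 10, 30 and 40 min. For pretreated 40 minus 10 min 9 were called, and NDE2 minus NDE1 at 40 min in pretreated cells was 1.11. With 1 array left out, and a lone remaining array taken to vary like the others, the counts ranged from 13 to 19, 17 to 24, 12 to 19 and 11 to 15 (naive 10 and 40 min, pretreated 10 and 40 min), 0 to 1, 0 to 2, 0 to 1 and 0 to 2 (pretreated minus naive at 10, 20, 30 and 40 min), 6 to 12 and 3 to 7 (40 minus 10 min, naive and pretreated), 17 to 20 (NaCl 45 min) and 0 to 5 (NaCl 45 minus 30 min). COX5B minus COX5A ranged from 0.42 to 0.68 at 10 min in naive cells, and CYC7 minus CYC1 from −2.58 to −1.66 (naive 10 min), 1.15 to 2.3 (naive 40 minus 10 min), −1.92 to −1.2 and −1.44 to −0.7 (pretreated 10 and 20 min). On the second design at a fold of 1.5 the members higher numbered 3 (nup42Δ basal), 3, 10, 9 and 17 (BY4741 naive 10 and 20 min, pretreated 10 and 20 min) and 1, 6, 3 and 13 (nup42Δ, same order); with equalised spread they were 10 (basal), 3 and 4 (BY4741 naive 10 and pretreated 20 min), 1, 3 and 3 (nup42Δ naive 10, pretreated 10 and 20 min) and 7 and 6 (NaCl, BY4741 and nup42Δ). The shares of higher calls over all genes moved by over 10 points in pretreated cells at 10 min (41.1% to 51.1%, centred), for pretreated minus naive at 10 min (100% to 88.9%, centred, and to 72.3%, H2O2 and NaCl arrays equalised) and 30 min (31.0% to 0.0%, H2O2 and NaCl arrays equalised), for pretreated 40 minus 10 min (46.9% to 33.3%) and for NaCl 45 minus 30 min (76.8% to 90.9%, both with all arrays equalised). The cause was not tested in any of these.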
